A study of Mus musculus with 9 samples.

Results

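The 8 genes described here encode S100 proteins, and they were taken by name from the deposited table: S100a8, S100a9, S100a11, S100a6, S100a10, S100a4, S100a1 and S100a13. They are 8 of the 54532 rows of that table, and all 8 were at or above 1 FPKM in at least 3 libraries, the level set for testing, as were 12289 genes in all. FPKM counts fragments per kilobase of a gene's exons, scaled to library size in M (mega) fragments. The library sizes implied by the deposited values departed from the fragment totals by up to 0.222 (log2). RNA of cells labelled myeloid, with white cells as their source, was sequenced in 9 libraries from C57BL/6 mice of 6 to 8 weeks, with 3 libraries in each of 3 groups, lettered A to C. The libraries labelled KO were described as SOCS3 knockouts, SOCS3 being an inhibitor of JAK kinases that holds back STAT3. The Gr_1 and fl libraries were both labelled wild type, and their names were not explained in the labels. The labels gave no Cre driver, no targeted exon and no tissue of origin, and did not say whether libraries came from separate or pooled animals. The p-values therefore measure the spread between these libraries, which may be technical.

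S100 proteins are small calcium-binding proteins that mostly work as dimers, and on binding calcium most of them open a surface that grips a target protein. S100A8 and S100A9 pair to form calprotectin, which fills much of the cytosol of neutrophils, takes up zinc and manganese when released, and acts on the receptors TLR4 and RAGE. S100A10 is the partner of annexin A2 and has lost calcium binding, S100A11 binds annexin A1, S100A6 (calcyclin) binds the calcyclin-binding protein, and S100A4 binds non-muscle myosin IIA. S100A1 is best known from heart muscle, where it acts on calcium handling, and S100A13 takes part in the release of FGF1.

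All 8 genes lie on chromosome 3 (GRCm38, GENCODE M21). S100a1 (ENSMUSG00000044080, minus strand, chr3:90511034-90514392) and S100a13 (ENSMUSG00000042312, plus strand, chr3:90514435-90524581) start back to back with 42 bases between them. S100a4 (ENSMUSG00000001020, plus strand, chr3:90603771-90606045) and S100a6 (ENSMUSG00000001025, plus strand, chr3:90612882-90624181) follow. S100a8 (ENSMUSG00000056054, plus strand, chr3:90668978-90670035) is 22.6 kilobases from S100a9 (ENSMUSG00000056071, minus strand, chr3:90692632-90695721). After a gap of 2825 kilobases come S100a11 (ENSMUSG00000027907, plus strand, chr3:93520488-93526287) and S100a10 (ENSMUSG00000041959, plus strand, chr3:93555080-93564643).

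The stretches upstream of S100a8, S100a9, S100a11 and S100a6 are shown because these 4 genes were all higher in Gr_1 than in fl libraries. They come from RefSeq (GRCm38.p6), which held a promoter entry for 7 of the 8 genes, and run 5′ to 3′ on each gene's own strand up to the first annotated start in RefSeq or GENCODE. Capitals mark matches to 4 short motifs searched on both strands: TTGCNNAA for C/EBP factors, GAGGAAG for PU.1, TTCNNNGAA for STAT factors and TGANTCA for AP-1. The positions are chr3:90668821-90668977 (plus) for S100a8, chr3:90695722-90695971 (minus) for S100a9, chr3:93520246-93520487 (plus) for S100a11 and chr3:90612644-90612881 (plus) for S100a6.
S100a8: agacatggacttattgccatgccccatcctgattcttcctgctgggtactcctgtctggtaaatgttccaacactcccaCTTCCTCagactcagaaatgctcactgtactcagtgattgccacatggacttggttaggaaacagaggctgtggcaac
S100a9: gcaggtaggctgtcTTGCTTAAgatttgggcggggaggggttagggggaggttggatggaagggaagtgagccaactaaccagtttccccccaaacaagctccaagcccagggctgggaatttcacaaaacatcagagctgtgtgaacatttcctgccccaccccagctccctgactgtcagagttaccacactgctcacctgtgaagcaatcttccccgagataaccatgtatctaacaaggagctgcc
S100a11: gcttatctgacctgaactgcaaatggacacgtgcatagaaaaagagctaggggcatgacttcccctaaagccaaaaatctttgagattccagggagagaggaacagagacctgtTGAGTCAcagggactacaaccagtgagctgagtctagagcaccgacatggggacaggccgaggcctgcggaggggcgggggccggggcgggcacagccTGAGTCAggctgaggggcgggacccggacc
S100a6: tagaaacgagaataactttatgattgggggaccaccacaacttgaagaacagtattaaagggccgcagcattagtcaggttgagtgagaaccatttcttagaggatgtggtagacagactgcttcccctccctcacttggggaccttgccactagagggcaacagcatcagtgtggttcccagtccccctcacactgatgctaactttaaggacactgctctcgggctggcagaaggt

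Over the full window of 250 bases before to 50 bases after the RefSeq start, S100a8 held 1 PU.1 match, which lies on the minus strand and is printed as CTTCCTC. S100a9 held 1 C/EBP match, TTGCTTAA, at position -236 from the start. S100a11 held 2 copies of the AP-1 match TGAGTCA. S100a4 held 1 PU.1 match, after its start, while S100a6, S100a1 and S100a13 held a match to none of the 4 motifs, and no window of the 7 held the STAT motif. Of 32851 mouse promoters of the same length, 10.8% held the C/EBP motif, 13.6% the PU.1 motif, 8.30% the STAT motif and 7.81% the AP-1 motif. A match describes the letters and does not show a bound factor.

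Depth and the labels bear on every value below. Between 18.3 and 21.5 M fragments were recovered per library, and a gene with 1 kilobase of exon had 3 fragments at 0.136 to 0.187 FPKM. Socs3, the gene named in the KO label, was higher in those libraries than in fl, at 6.76 to 9.23 FPKM against 3.405 to 4.02 FPKM in fl libraries (log2 change 0.93, limma, adjusted p = 0.00136), and Gr_1 libraries had 33.0 to 37.0 FPKM. The X-inactivation RNA Xist had 58.5 FPKM in KO B and 26.3 FPKM in KO C, and at most 0.0104 FPKM in the other libraries. The sum of 4 genes of the Y chromosome (Uty, Kdm5d, Ddx3y and Eif2s3y) was at 26.5 FPKM in KO A, 0 in KO B and 14.2 FPKM in KO C, and every Gr_1 and fl library carried them. Xist stood above 0.0104 FPKM only in libraries labelled KO, and the part of sex in their differences from the other groups was not tested. Of the fl libraries fl C stood apart, with a chi-square per gene of 33.2 against fl A and 28.4 against fl B, compared with 4.97 between fl A and fl B. Among the libraries labelled KO this value was 50.3 between KO A and KO B. It was 14.4 between KO A and KO C and 16.0 between KO B and KO C. KO C lay between KO A and KO B for 61.5% of tested genes, against 15.6% to 44.4% for the other libraries within their own groups, and it did so for 7 of the 8 S100 genes, S100a13 being the exception. KO C carried both Xist and the 4 Y-linked genes, at levels between those of KO A and KO B. Whether KO C is independent of KO A and KO B was not tested. The SDs and tests with 3 libraries labelled KO assume that it is. Of the 6 genes set to check the myeloid label, Ptprc, Itgam, Spi1, Csf3r and Csf1r averaged at least 30.2 FPKM in every group, and Lyz2, the lysozyme gene of neutrophils and macrophages, averaged 56.3 FPKM in the libraries labelled KO, 10663 FPKM in Gr_1 and 9165 FPKM in fl libraries.

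Calprotectin dominated these transcriptomes. S100a9 was the most abundant gene and S100a8 the next in each of the 9 libraries. The levels of S100a9 were 38855, 27438 and 31781 FPKM in KO A, B and C, 66362, 67927 and 66785 FPKM in Gr_1 A, B and C, and 25924, 24762 and 29022 FPKM in fl A, B and C. The levels of S100a8 were 29135, 19833 and 23327 FPKM in KO A, B and C, 50488, 52081 and 51599 FPKM in Gr_1 A, B and C, and 18537, 18734 and 16746 FPKM in fl A, B and C. For both genes all 3 Gr_1 libraries stood above all other libraries. The libraries labelled KO overlapped with fl for S100a9 and lay above fl for S100a8, with KO A the highest and KO B the lowest of their group. In RNA of mixed cells, fewer cells of a type and less RNA per cell cannot be told apart.

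**Figure D1:**
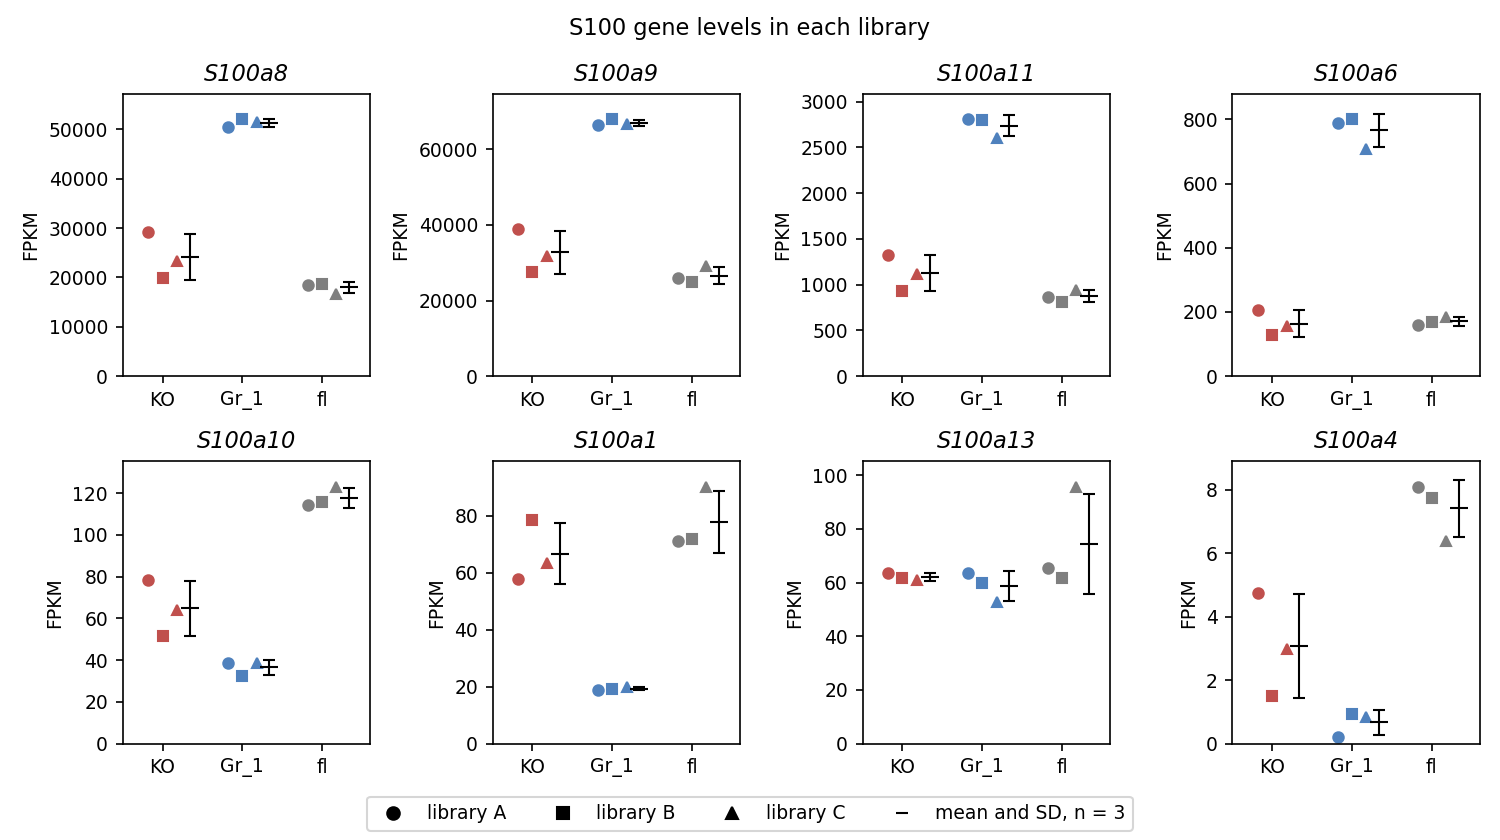
Level of each S100 gene in FPKM (vertical axis, linear from 0, own scale per panel) in the 3 libraries labelled KO, the 3 Gr_1 and the 3 fl libraries. Symbols are single libraries (circle A, square B, triangle C) and the black dash with bar is the mean with its SD. The Gr_1 libraries stand highest for S100a8, S100a9, S100a11 and S100a6 and lowest for S100a10, S100a1 and S100a4.

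Together S100a8 and S100a9 held 18.3%, 13.8% and 15.6% of all FPKM in KO A, B and C. They held 24.1%, 24.7% and 24.9% in Gr_1 A, B and C, and 12.7%, 12.4% and 11.8% in fl A, B and C. No library of one group reached into the range of another. The mean share was 15.9% ± 2.30 in the libraries labelled KO, against a mean of 12.3% ± 0.434 in fl libraries (SD, n = 3 each), a difference of 3.60 percentage points. Gr_1 libraries, at 24.5% ± 0.429, stood 12.2 points above fl libraries, and the libraries labelled KO stood 8.64 points below Gr_1 libraries. Each of the 3 differences had p = 0.1 in an exact two-sided permutation test, which is the smallest p that 3 against 3 libraries allow.

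The spread in the libraries labelled KO bears on the size of the first difference. It was 2.38 points without KO A and 4.66 points without KO B. Since both transcripts are short, their share of fragments was smaller than their share of FPKM. They held 3.63% ± 0.564 of the recovered fragments in the libraries labelled KO, 6.01% ± 0.103 in Gr_1 and 2.75% ± 0.0427 in fl libraries (SD, n = 3 each). All 8 S100 genes held 16.3% ± 2.35 of all FPKM in the libraries labelled KO, 25.3% ± 0.409 in Gr_1 and 12.7% ± 0.428 in fl libraries, so the other 6 genes added little.

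**Figure D2:**
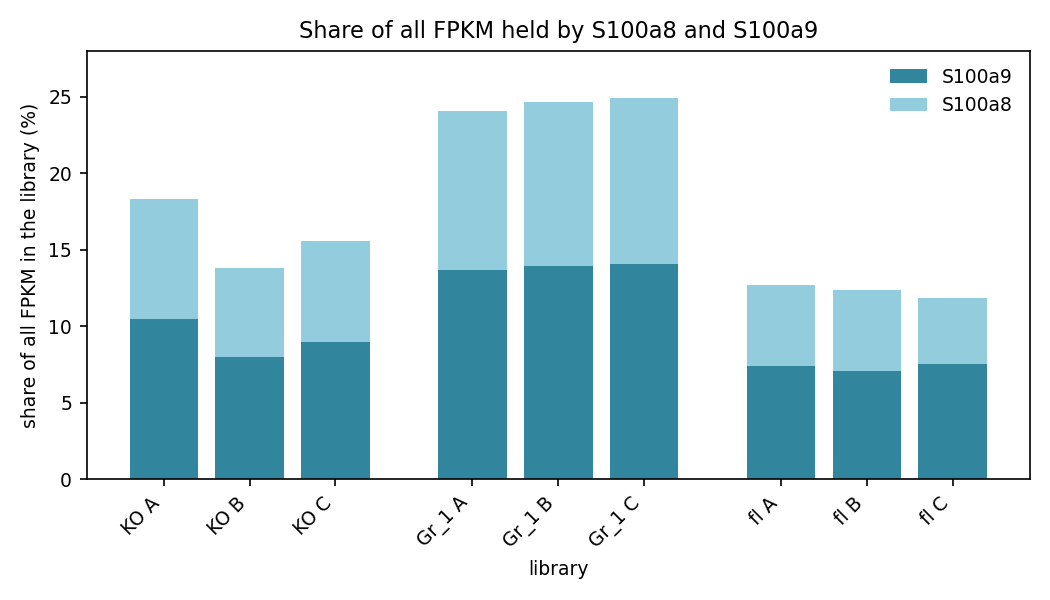
Share of all FPKM of a library (vertical axis, percent, from 0) held by S100a9 (dark, below) and S100a8 (light, above) in each of the 9 libraries. The stacked share is 13.8% to 18.3% in the libraries labelled KO, 24.1% to 24.9% in Gr_1 and 11.8% to 12.7% in fl.

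The fit across all genes (limma on log2(FPKM + 1), Benjamini-Hochberg adjustment over the 12289 genes tested) gave calls at an adjusted p under 0.05. S100a8 was 2.85-fold higher in Gr_1 than in fl libraries, a log2 change of 1.51 ± 0.19 (SE, adjusted p = 0.000189), and S100a9 was 2.52-fold higher, a log2 change of 1.34 ± 0.20 (adjusted p = 0.000482). In the libraries labelled KO both were lower than in Gr_1 libraries, S100a8 by 2.13-fold (log2 change -1.11 ± 0.19, adjusted p = 0.00143) and S100a9 by 2.05-fold (log2 change -1.05 ± 0.20, adjusted p = 0.00239). Between the libraries labelled KO and fl neither gene passed the test. The log2 change of S100a8 there was 0.40 with a 95% interval of -0.04 to 0.85 (adjusted p = 0.228), and that of S100a9 was 0.29 with an interval of -0.17 to 0.75 (adjusted p = 0.410). These calls were lost when no gene was filtered out, with the same log2 changes but SEs of 1.77 for S100a8 and 2.37 for S100a9, and adjusted p-values of 0.589 and 0.740 for Gr_1 against fl and 0.704 and 0.803 for KO against Gr_1. Quantile normalization, which gives equal values to equal ranks, set the changes of both genes to 0 by construction, since they ranked first and next in every library.

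The ratio of S100a8 to S100a9 within a library does not depend on how libraries are scaled. It was 0.750, 0.723 and 0.734 in KO A, B and C, 0.761, 0.767 and 0.773 in Gr_1 A, B and C, and 0.715, 0.757 and 0.577 in fl A, B and C. The library fl C stood apart, with the lowest S100a8 level and the highest S100a9 level of the fl group. On the log2 scale the ratio averaged -0.44 ± 0.03 in the libraries labelled KO, -0.38 ± 0.01 in Gr_1 and -0.56 ± 0.21 in fl libraries (SD, n = 3 each). Gr_1 libraries were above fl libraries by 0.18 (exact two-sided permutation p = 0.1, the smallest possible), which was 0.06 without fl C. The libraries labelled KO were below Gr_1 libraries by 0.06 (difference -0.06, exact permutation p = 0.1). The difference between the libraries labelled KO and fl was 0.12 (exact permutation p = 0.5), and without fl C it was -0.00011.

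Which of the pair came first rested on the gene length in the FPKM. The deposited values divide by the union of all annotated exons, which is 694 bases for S100a8 and 522 bases for S100a9, whereas the principal transcripts have 486 and 512 bases. With the principal lengths, a scale chosen after the data were seen, S100a8 was 1.01 to 1.05 times S100a9 in the libraries labelled KO and 1.07 to 1.08 times in Gr_1 libraries. The fl libraries then had ratios of 1.002, 1.06 and 0.808 in A, B and C. Differences between groups were the same on both scales.

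**Figure D3:**
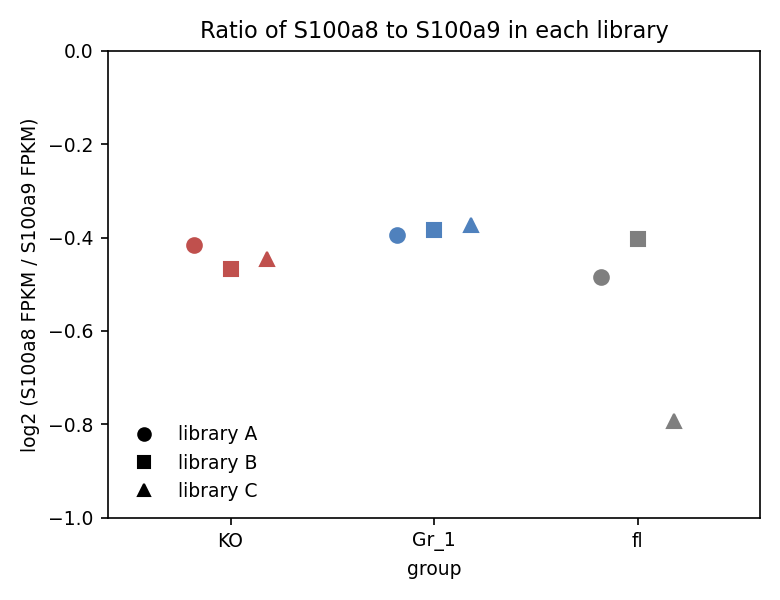
Base 2 logarithm of S100a8 FPKM over S100a9 FPKM (vertical axis, no unit) in each library, for the libraries labelled KO, Gr_1 and fl (circle A, square B, triangle C). The 3 Gr_1 libraries lie between -0.39 and -0.37, the 3 labelled KO between -0.47 and -0.42, and fl C at -0.79 stands below fl A and fl B.

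S100a11 followed calprotectin at a lower level. It had 1329, 936 and 1115 FPKM in KO A, B and C, 2809, 2799 and 2608 FPKM in Gr_1 A, B and C, and 861, 815 and 946 FPKM in fl A, B and C. All Gr_1 libraries stood above all others, and the ranges of the libraries labelled KO and fl overlapped. It was 3.13-fold higher in Gr_1 than in fl libraries (log2 change 1.65 ± 0.13, limma, adjusted p = 1.46e-05) and 2.43-fold lower in the libraries labelled KO than in Gr_1 libraries (log2 change -1.29 ± 0.13, adjusted p = 9.87e-05). For KO against fl the log2 change was 0.35 with a 95% interval of 0.05 to 0.66 and did not pass after adjustment (adjusted p = 0.132). It passed as higher in the libraries labelled KO under 4 other scalings (adjusted p = 0.0411 to 0.0498) without KO B (adjusted p = 0.0324) and with KO A as the only KO library (adjusted p = 0.0379).

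S100a6 moved most of the genes that were higher in Gr_1. It had 207, 127 and 157 FPKM in KO A, B and C, 790, 800 and 706 FPKM in Gr_1 A, B and C, and 158, 168 and 186 FPKM in fl A, B and C. The Gr_1 libraries formed a level of their own, and the range of fl lay inside that of the libraries labelled KO. S100a6 was 4.49-fold higher in Gr_1 than in fl libraries (log2 change 2.16 ± 0.16, limma, adjusted p = 9.57e-06) and 4.67-fold lower in the libraries labelled KO than in Gr_1 libraries (log2 change -2.24 ± 0.16, adjusted p = 3.24e-05). Between the libraries labelled KO and fl its log2 change was -0.08 with an interval of -0.44 to 0.28 (adjusted p = 0.789), and its sign turned without KO B.

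S100a10 and S100a4 ran the other way and were the only S100 genes called between the libraries labelled KO and fl. S100a10 had 78.5, 51.8 and 64.1 FPKM in KO A, B and C, 38.7, 32.4 and 38.8 FPKM in Gr_1 A, B and C, and 114, 116 and 123 FPKM in fl A, B and C. The groups did not overlap, with fl highest and Gr_1 lowest. S100a10 was 1.82-fold lower in the libraries labelled KO than in fl libraries (log2 change -0.87 ± 0.14, limma, adjusted p = 0.00548) and stayed called when any 1 of the 9 libraries was left out (adjusted p up to 0.0275). It was 3.21-fold lower in Gr_1 than in fl libraries (log2 change -1.66 ± 0.14, adjusted p = 1.76e-05) and 1.77-fold higher in the libraries labelled KO than in Gr_1 libraries (log2 change 0.79 ± 0.14, adjusted p = 0.00144).

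S100a4 was near the lower edge of detection. It had 4.74, 1.496 and 2.99 FPKM in KO A, B and C, 0.214, 0.943 and 0.855 FPKM in Gr_1 A, B and C, and 8.09, 7.75 and 6.39 FPKM in fl A, B and C. These levels rest on 19 to 55 fragments per library labelled KO, 2 to 10 per Gr_1 library and 69 to 104 per fl library, and the 2 fragments of Gr_1 A are under the floor of 3 set by counting. The order of the groups was that of S100a10, again without overlap. S100a4 was lower in Gr_1 than in fl libraries (log2 change -2.36 ± 0.29, limma, adjusted p = 0.000147) and higher in the libraries labelled KO than in Gr_1 libraries (log2 change 1.24 ± 0.29, adjusted p = 0.00632). It was 2.41-fold lower in the libraries labelled KO than in fl libraries (log2 change -1.12 ± 0.29, adjusted p = 0.0414), a call lost in 7 of the 9 fits with 1 library left out, namely Gr_1 B, Gr_1 C, KO B, KO C and each fl library, with adjusted p up to 0.114. The call was lost under 15 of 20 alternative settings in all, among them 3 scalings of the libraries to equal FPKM sums, over all genes or without the most abundant ones (adjusted p = 0.0531 to 0.0634), and KO A as the only KO library (adjusted p = 0.319). Of its 584 exon bases 302 are shared on the same strand with the gene model Gm42674, which had 0 or 1 fragment per library. How fragments in shared exons were counted was not given in the sources used here, so the level of S100a4 is uncertain.

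S100a1 was lower in Gr_1 libraries than in both other groups. It had 57.9, 78.5 and 63.3 FPKM in KO A, B and C, 19.0, 19.0 and 19.8 FPKM in Gr_1 A, B and C, and 71.2, 71.9 and 90.2 FPKM in fl A, B and C. The Gr_1 libraries lay below all others, the ranges of the libraries labelled KO and fl overlapped, and KO A and KO B stood in the reverse of their order for S100a8. S100a1 was 4.03-fold lower in Gr_1 than in fl libraries (log2 change -1.95 ± 0.12, limma, adjusted p = 5.03e-06) and 3.46-fold higher in the libraries labelled KO than in Gr_1 libraries (log2 change 1.73 ± 0.12, adjusted p = 3.24e-05). For KO against fl the log2 change was -0.22 with an interval of -0.51 to 0.06 (adjusted p = 0.296).

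S100a13 was the most even of the 8. It had 63.6, 61.9 and 60.8 FPKM in KO A, B and C, 63.8, 59.7 and 52.7 FPKM in Gr_1 A, B and C, and 65.5, 61.8 and 95.8 FPKM in fl A, B and C. All groups overlapped. The highest library was fl C, and fl A also lay above every library labelled KO and every Gr_1 library. No comparison passed the test, with log2 changes of -0.23 for KO against fl (interval -0.57 to 0.11, adjusted p = 0.378), -0.31 for Gr_1 against fl (interval -0.66 to 0.03, adjusted p = 0.102) and 0.08 for KO against Gr_1 (interval -0.26 to 0.43, adjusted p = 0.660). S100a1 and S100a13 thus differed in their values although their gene starts are 42 bases apart, S100a1 passing the test in both comparisons with Gr_1 libraries and S100a13 in neither. The difference between their changes was not tested. Without fl C the change in Gr_1 against fl was -0.12. Without fl B, S100a13 was called lower in Gr_1 than in fl libraries (log2 change -0.43, adjusted p = 0.0440), as it was under 4 other scalings (adjusted p = 0.000667 to 0.0167). Under 3 of these it was also called higher in the libraries labelled KO than in Gr_1 libraries.

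**Figure D4:**
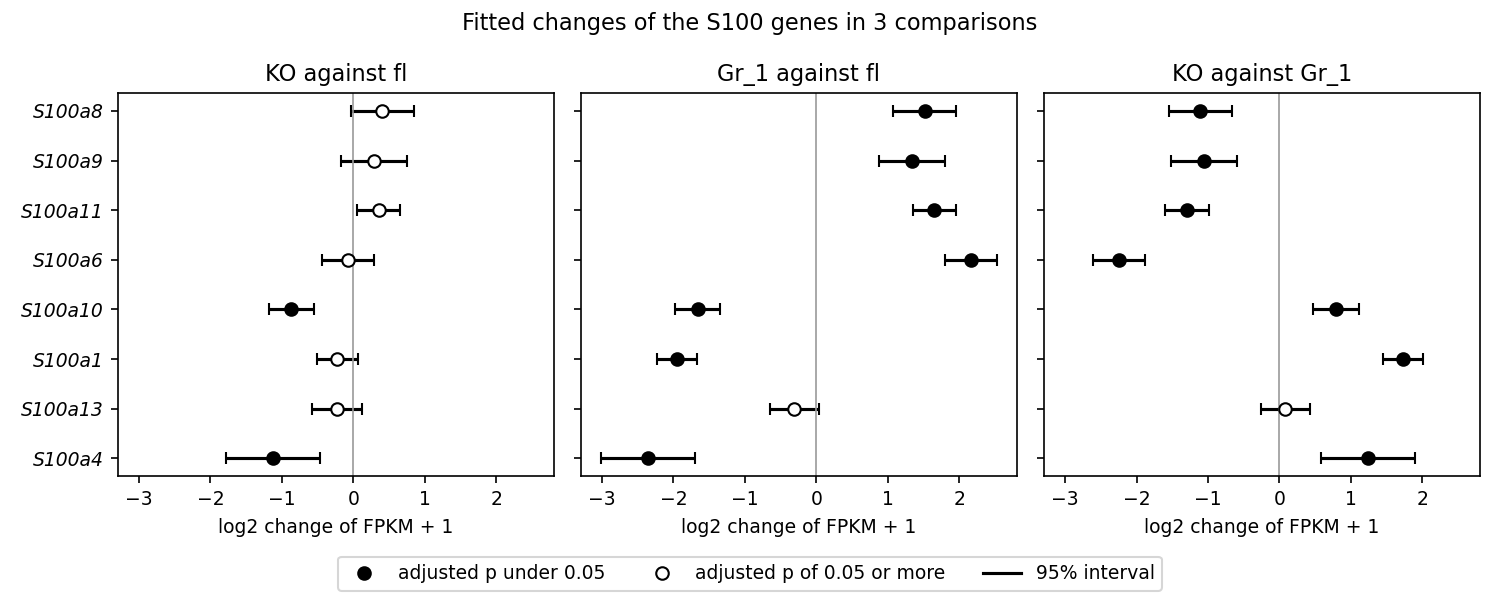
Fitted log2 change of FPKM + 1 (horizontal axis) for the 8 S100 genes in KO against fl, Gr_1 against fl and KO against Gr_1, with 95% intervals. Filled symbols have an adjusted p under 0.05, as S100a10 and S100a4 do in KO against fl and 7 of the 8 genes do in each comparison with Gr_1. The first-named group is higher to the right of 0.

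Counted together, 0 of the 8 genes were called higher and 2 were called lower in KO against fl, where 4.48% of all tested genes were called higher and 6.52% lower. By unadjusted limma p under 0.05, 1 of the 8 was higher, S100a11, as were 11.5% of all tested genes. Voom on the recovered fragments called 0 of the 8 and 5.63% of all its genes higher. Under each of the 3 equal-sum scalings 1 of the 8 was higher, S100a11, and 1 lower, S100a10, and with quantile normalization 1 was higher, S100a11, and 2 were lower. In Gr_1 against fl, 4 were higher and 3 lower, where 30.0% of all tested genes were called higher and 31.4% lower. In KO against Gr_1, 3 were higher and 4 lower, where 26.7% were called higher and 28.9% lower. The median log2 change of the 8 genes was -0.15, 0.51 and -0.48 in these 3 comparisons, against -0.01, -0.03 and 0.01 over all tested genes. The comparisons share libraries, and so are not independent of each other. The split of calls over all genes depended on scaling. With libraries scaled to equal FPKM sums, the median over all genes moved to -0.41 in Gr_1 against fl, and 22.9% of the calls there were higher, against 48.8% with the deposited scale. In KO against Gr_1 that median moved to 0.41 and 80.4% of calls were higher, against 48.0%. S100a8, S100a9, S100a11 and S100a6 were called higher in Gr_1 than in fl libraries, and S100a10, S100a1 and S100a4 lower, under each of 3 such equal-sum scalings too. In KO against fl 40.8% of calls were higher on the deposited scale and 58.6% with libraries scaled to equal sums without S100a8 and S100a9.

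By level per kilobase on the deposited exon lengths, the order of the genes was S100a9, S100a8, S100a11 and S100a6 in every group. S100a9 and S100a8 overlapped only in the libraries labelled KO. In fl libraries S100a10 came next, followed by S100a1 and S100a13, which overlapped, and S100a4 was last. In the libraries labelled KO, S100a1, S100a10 and S100a13 averaged 66.6, 64.8 and 62.1 FPKM and each overlapped with its neighbour in this order. In Gr_1 libraries S100a13 was next after S100a6, then S100a10, S100a1 and S100a4, without overlap between neighbours. The place of S100a10 rested on the length too. With principal transcript lengths it averaged 115 FPKM in the libraries labelled KO, above S100a1 at 68.3 FPKM and without overlap, and 64.8 FPKM in Gr_1 libraries, above S100a13 at 58.7 FPKM but overlapping with it. Of the 10 other S100 genes of the table none passed the filter, and the highest was S100a2, at 0.160 to 0.876 FPKM in the libraries labelled KO, 0.991 to 1.58 FPKM in Gr_1 and 0.144 to 0.172 FPKM in fl libraries, on 10, 22 and 3 fragments over the 3 libraries of each group. Between the outermost S100 genes of chromosome 3 lie 107 genes of other families, and 1 of them was tested, Gm4202. It was called higher in Gr_1 than in fl libraries (log2 change 0.95, limma, adjusted p = 0.00314) and lower in the libraries labelled KO than in Gr_1 libraries (log2 change -0.54, adjusted p = 0.0465).

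The profile of each gene over the 9 libraries was compared with those of all tested genes, as the root mean square difference of log2(FPKM + 1) after each profile was centred on its mean. Among the members S100a8, S100a9 and S100a11 lay closest, with differences of 0.123 for S100a8 and S100a9, 0.126 for S100a8 and S100a11, and 0.137 for S100a9 and S100a11. Of 12288 other genes, S100a9 ranked 57 by closeness to S100a8, and S100a11 ranked 68. Among the closest genes to S100a8 were Ogt and Zmpste24 (0.0660 and 0.0664), and the closest to S100a9 were Kif21b, Cdh23 and Dop1b (0.0413 to 0.0566). The closest to S100a11 were Cd177, a surface glycoprotein of neutrophils, the C5a receptor gene C5ar2, and Carhsp1 (0.0402 to 0.0476). Among the closest to S100a6 were Cplx2 and the B cell transcription factor gene Pax5 (0.120 and 0.153). S100a10 was closest to Cyp2ab1, Calhm2 and Rnase6 (0.0763 to 0.0902), and S100a4 to the monocyte chemokine receptor gene Cx3cr1, Ms4a6b and Ptpro (0.224 to 0.272). S100a1 was closest to Glt1d1, Igfbp4 and Fcnb, the ficolin gene of maturing neutrophils (0.0927 to 0.128).

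Markers of several cell types differed between the same groups. As a background, 4.48% of all tested genes were called higher and 6.52% lower in KO against fl. These shares were 30.0% and 31.4% in Gr_1 against fl, and 26.7% and 28.9% in KO against Gr_1. Of 13 late neutrophil genes, 8 were called higher and 0 lower in KO against fl. In Gr_1 against fl 12 were higher and 0 lower, and in KO against Gr_1 0 were higher and 12 lower. S100a8, S100a9, S100a11 and S100a6 were also called higher in Gr_1 against fl and lower in KO against Gr_1. In KO against fl, where 8 late neutrophil genes were higher, S100a8, S100a9, S100a11 and S100a6 were not called, and S100a6 had a log2 change of -0.08. The summed level of the 13 late neutrophil genes was 34776, 24040 and 29454 FPKM in KO A, B and C. S100a8, S100a9, S100a11, S100a6, S100a10 and S100a4 had the same order of these libraries, while S100a1 and S100a13 did not. The monocyte sum and the B and plasma cell sum, given below, had that order too, so it was not particular to neutrophil genes. The late neutrophil sum was 56397 to 57849 FPKM in Gr_1 and 21601 to 26671 FPKM in fl libraries. Ngp and Camp made up most of it. They averaged 13111 and 10156 FPKM in the libraries labelled KO, and 10541 and 9828 FPKM in fl libraries. Neither was called in KO against fl, and Camp was called in no comparison. Of 6 early granulocyte genes, all 6 were lower in Gr_1 than in fl libraries and higher in the libraries labelled KO than in Gr_1 libraries, and 0 were called in KO against fl, beside S100a1. Their sum was 3134, 6617 and 4968 FPKM in KO A, B and C, 200 to 309 FPKM in Gr_1 and 3824 to 5696 FPKM in fl libraries.

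Of 10 monocyte genes, 9 were lower and 0 higher in the libraries labelled KO against fl, all 10 were lower in Gr_1 against fl, and 8 were higher and 0 lower in KO against Gr_1, beside S100a10 and S100a4. Their sum was 1220 to 1450 FPKM in the libraries labelled KO, 975 to 1074 FPKM in Gr_1 and 2543 to 2605 FPKM in fl libraries. Of 5 B and plasma cell genes, 5 were higher in Gr_1 against fl, 4 were lower in KO against Gr_1 and 0 were called in KO against fl, beside S100a6. Their sum was 61.5 to 78.1 FPKM in the libraries labelled KO, 210.0 to 230 FPKM in Gr_1 and 60.7 to 86.5 FPKM in fl libraries. No gene of these 4 lists was at 0 in all libraries. The part of cell makeup in the changes of the S100 genes was not tested.

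**Figure D5:**
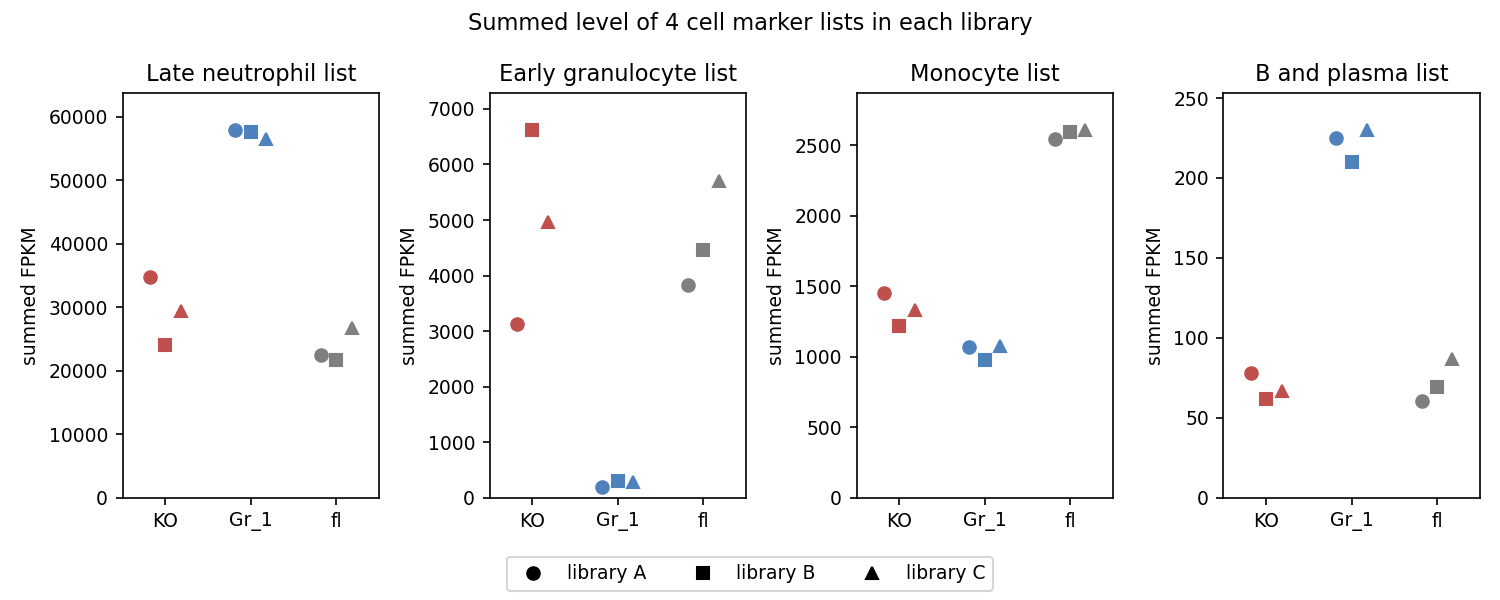
Summed FPKM (vertical axis, linear from 0, own scale per panel) of the late neutrophil (13 genes), early granulocyte (6), monocyte (10) and B and plasma cell (5) lists in each library labelled KO, Gr_1 and fl (circle A, square B, triangle C). Late neutrophil sums are 24040 to 34776 in the libraries labelled KO, 56397 to 57849 in Gr_1 and 21601 to 26671 in fl. Ngp and Camp make up most of them.

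Genes whose proteins bind S100 proteins or act as their receptors were described as a list of 19, all tested. In the libraries labelled KO against fl 1 was higher and 2 were lower. Over all tested genes 4.48% were called higher in that comparison and 6.52% lower. Cd33, a sialic acid lectin whose human form binds S100A9, averaged 33.2 ± 12.2 FPKM in the libraries labelled KO and 14.7 ± 1.12 FPKM in fl libraries (SD, n = 3 each, limma, adjusted p = 0.0167). The annexin gene Anxa5 was at 72.5 ± 2.62 FPKM in the libraries labelled KO and 115 ± 1.39 FPKM in fl libraries (adjusted p = 0.000654). Ahnak, a scaffold protein that binds the complex of S100A10 with annexin A2, was at 13.5 ± 1.46 FPKM in the libraries labelled KO and 32.1 ± 4.47 FPKM in fl libraries (adjusted p = 0.00281). Anxa2, the partner of S100a10, was not called in KO against fl (log2 change -0.27, adjusted p = 0.241).

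In Gr_1 against fl 9 of the 19 were higher and 5 lower, where 30.0% of all tested genes were called higher and 31.4% lower. Among the rises with the smallest adjusted p were those of Cd33, at 137 ± 6.29 FPKM in Gr_1 and 14.7 ± 1.12 FPKM in fl libraries (log2 change 3.13 ± 0.22, adjusted p = 7.27e-06), and Anxa1, the partner of S100a11, at 1430 ± 57.0 FPKM in Gr_1 and 386 ± 74.7 FPKM in fl libraries (adjusted p = 2.29e-05). Lower were Ahnak (log2 change -2.42, adjusted p = 6.06e-06), Anxa5 (-0.90, adjusted p = 6.62e-06) and the scavenger receptor gene Cd36 (-1.07, adjusted p = 0.000112). Anxa2 was higher in Gr_1, at 267 ± 11.7 FPKM against 140 ± 4.42 FPKM in fl libraries (adjusted p = 0.000399), while S100a10 was lower. The calprotectin receptor genes Tlr4 and Ager were at low levels. Tlr4 had 6.84 ± 0.802 FPKM in Gr_1 and 3.56 ± 0.540 FPKM in fl libraries (adjusted p = 0.000234), and Ager, which encodes RAGE, had 7.07 ± 0.337 FPKM in Gr_1 and 3.64 ± 0.294 FPKM in fl libraries (adjusted p = 0.000549). Neither was called in KO against fl, with log2 changes of 0.13 for Tlr4 (adjusted p = 0.471) and 0.26 for Ager (adjusted p = 0.219).

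In KO against Gr_1 5 of the 19 were higher and 13 lower, where 26.7% of all tested genes were called higher and 28.9% lower. Lower in the libraries labelled KO were, among others, Cd33 (log2 change -2.07, adjusted p = 0.000111) and Myh9, the myosin bound by S100A4 (-0.91, adjusted p = 0.000145). Higher there were Ahnak (1.24, adjusted p = 0.000303), Cd36 (0.71, adjusted p = 0.00143) and the annexin gene Anxa6 (0.45, adjusted p = 0.00712). Anxa2 (-1.20, adjusted p = 0.000157), Tlr4 (-0.65, adjusted p = 0.000887) and Ager (-0.54, adjusted p = 0.00585) were lower there. The median log2 change of the 19 genes was -0.06 in KO against fl, 0.30 in Gr_1 against fl and -0.59 in KO against Gr_1. Over all tested genes it was -0.01, -0.03 and 0.01 in the same order.

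The 7 regulators, factors known to drive calprotectin genes or other granulocyte genes, were also all tested. In KO against fl 1 was higher and 0 were lower, Klf5, a zinc finger factor, at 8.24 ± 0.257 FPKM in the libraries labelled KO and 5.97 ± 0.629 FPKM in fl libraries (limma, adjusted p = 0.0111). In Gr_1 against fl 4 were higher and 1 lower. Klf5 (log2 change 1.03, adjusted p = 1.00e-05), Stat3 (0.57, adjusted p = 0.000228) and Spi1, which encodes PU.1 (0.54, adjusted p = 0.00388), were higher, and Cebpa was lower (-1.31, adjusted p = 0.000162). In KO against Gr_1 1 was higher, Cebpa (0.93, adjusted p = 0.00152), and 4 were lower, among them Klf5 (-0.61, adjusted p = 0.000246), Stat3 (-0.61, adjusted p = 0.000253) and Spi1 (-0.68, adjusted p = 0.00137). Cebpb, a C/EBP factor of myeloid cells, had 106 ± 30.6 FPKM in the libraries labelled KO, 224 ± 21.2 FPKM in Gr_1 and 178 ± 43.4 FPKM in fl libraries. It was lower in KO against Gr_1 (log2 change -1.10, adjusted p = 0.00305) and not called in KO against fl (-0.75, adjusted p = 0.0677) or in Gr_1 against fl (0.35, adjusted p = 0.199). The median log2 change of the 7 genes was -0.03, 0.54 and -0.61 in KO against fl, Gr_1 against fl and KO against Gr_1. Over all tested genes it was -0.01, -0.03 and 0.01 in the same order. Of all tested genes 4.48%, 30.0% and 26.7% were called higher in these comparisons, and 6.52%, 31.4% and 28.9% lower.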

How the data were processed

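The table deposited by the authors holds FPKM values of 54532 Ensembl genes in 9 libraries, per the file headers. The submitters' processing notes name featureCounts 1.5.0-p3, DESeq2 1.16.1, and the builds mm10 and GRCm38 without their roles, and the aligner was not given in the sources used here. Symbols, exon lengths and coordinates came from GENCODE M21 (54495 rows matched, 37 did not). Multiplying FPKM by the union exon length gave the fragments behind each value, and 97.2% to 97.5% of values under 1000 fragments per library were whole within 0.02. The implied denominators, 16.0 to 22.0 M (mega) fragments, followed median-of-ratios size factors within 0.000224 (log2) and departed from the totals by up to 0.222. Floors of 3 fragments cover counting error only.

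Each gene that reached 1 FPKM in 3 or more libraries was tested on log2(FPKM + 1) with limma 3.58.1 (R 4.3.3, mean-variance trend), in 1 fit with 1 term per group, no block and 6 residual degrees of freedom. The two-sided p-values had Benjamini-Hochberg adjustment over all 12289 genes and calls at an adjusted p under 0.05. The log2 changes understate those of low genes, and folds are ratios of mean FPKM. Shares and ratios were compared with exact permutation tests in scipy 1.17.1. Python 3.11.15, numpy 2.4.6, pandas 2.3.3 and matplotlib 3.10.9 were also used, and the fit was tested on simulated data. Recovered fragments entered voom as an alternative. Other alternatives were scalings, filters, the pseudocount, a replicate block and libraries left out.

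The rule for named genes took the 8 members throughout, and from each list up to 3 called genes per direction with the smallest adjusted p, plus Anxa2, Tlr4, Ager and Cebpb. It also took the 3 closest profiles of members with a log2 change of 1 or more in size, and the highest of the other S100 genes. Ngp, Camp, Nkg7, Prg2 and Epx were named outside this rule, for their part in the marker sums. The 8 members and the lists were chosen with earlier results of these data known. Protein sequences were not analysed here. A few genes that this rule names are not reported here.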

Additional observations from a re-analysis of the deposited data

How the results depend on the processing

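Of 480 values of the 8 genes under 20 alternative settings, 436 kept their direction and their side of the threshold, 2 kept their side at a change of 0 (S100a8 and S100a9 in KO against fl under quantile normalization), 23 lost the call, 14 gained one and 5 changed sign. With no filter, a filter at 5 FPKM, only the 2 groups or the replicate block, the log2 changes equal those of the main fit by construction. The same holds where libraries left out belong to neither group compared. There only the calls could change. In KO against fl, 1 of the 8 genes was called in place of 2 with no filter, with only the 2 groups in the fit, with a pseudocount of 0.1 and with the replicate block, S100a4 being the gene lost each time, and leaving out 1 library gave 1 to 2. The count stayed at 2 while S100a4 was lost and S100a11 gained under the 3 equal-sum scalings, without KO B and with KO A as the only KO library. The 5 changes of sign were all of S100a6 in KO against fl, which passed the test under none of the settings: 0.29 with KO A as the only KO library, 0.0068 and 0.0055 with equal FPKM sums without S100a8 and S100a9 or without the 10 most abundant genes, 0.074 with quantile normalization, and -0.26 to 0.087 with 1 library left out (0.087 without KO B). The difference in the log2 ratio of S100a8 to S100a9 in KO against fl ran from -0.00011 to 0.20 with 1 library left out. The calls over all genes in KO against fl were 1352, and 573 to 1261 with 1 library left out (573 without KO C, 730.0 without fl B, 818 without fl A), 612 with KO A as the only KO library and 794 with only the 2 groups. In KO against Gr_1 they were 6843, and 3302 with KO A as the only KO library, which leaves that group with 1 library assumed to vary like the others. The cause of these differences was not tested, beyond the fewer libraries in some fits. The letters A to C gave no clear pairing of the libraries. Of correlations of deviations from the group means, 1 of 9 same-letter ones exceeded 0.1 (KO A with fl A, 0.14), against 0 of 18 others. Of the 9 libraries 0 correlated best with their own letter in both other groups. With 3 libraries a group these correlations cannot exclude a pairing. With the replicate block 1037 genes were called in KO against fl, 7280.0 in Gr_1 against fl and 6469 in KO against Gr_1. Depth limits only S100a4 and the S100 genes that were not tested. With 3 libraries a group the exact tests cannot go below 0.1.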

Other observations

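In KO against fl, 4.48% of all tested genes were called higher and 6.52% lower. Of 6 tested macrophage genes 3 were called lower and 0 higher in the libraries labelled KO than in fl libraries. In Gr_1 against fl 3 were called higher and 3 lower, where 30.0% of all tested genes were called higher and 31.4% lower. The summed level of all 7 listed macrophage genes, tested or not, was 107 to 126 FPKM in the libraries labelled KO. It was 114 to 122 FPKM in Gr_1 and 176 to 183 FPKM in fl libraries. Of 4 natural killer cell genes 3 were called higher in the libraries labelled KO than in fl libraries. The sum of all 4 was 127 to 246 FPKM in the libraries labelled KO, 15.0 to 20.5 FPKM in Gr_1 and 137 to 199 FPKM in fl libraries. Most of that sum was Nkg7, the gene not called in KO against fl. It averaged 169 FPKM in the libraries labelled KO and 158 FPKM in fl libraries. Eosinophil, basophil and mast cell genes had 4 of 6 called higher in KO against fl. The sum of all 6 was 4498, 9153 and 6706 FPKM in KO A, B and C, 1303 to 1679 FPKM in Gr_1, and 4048, 4388 and 8641 FPKM in fl A, B and C, so that fl C, which stood apart in the ratio of S100a8 to S100a9, was also apart here. Prg2 and Epx made up most of that sum and were not called in KO against fl. They averaged 6252 and 375 FPKM in the libraries labelled KO, and 5333 and 307 FPKM in fl libraries. Erythroid and platelet genes summed to 78.9 to 84.3 FPKM in the libraries labelled KO, 75.6 to 140 FPKM in Gr_1 and 30.8 to 51.2 FPKM in fl libraries. Of these 6 genes 2 were called higher and 0 lower in KO against fl, and 5 higher and 0 lower in Gr_1 against fl. The 6 T cell genes summed to 6.07 to 7.54 FPKM in the libraries labelled KO, 4.54 to 5.80 FPKM in Gr_1 and 0.881 to 1.78 FPKM in fl libraries. Of 2 tested T cell genes, 2 were called higher in KO against fl and 1 in Gr_1 against fl. Fibroblast, endothelial and epithelial genes stayed at or under 9.99 FPKM in sum in every library. The part of these differences in the levels of the S100 genes was not tested.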
